A study of Drosophila melanogaster with 12 samples.

Results

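The genes described here encode proteins of the Drosophila eggshell, made by the follicle cells that surround each developing egg in the ovary. They were chosen by symbol, namely Cp15, Cp16, Cp18, Cp19, Cp36, Cp38, Vm26Aa, Vm26Ab, Vm32E and dec-1. Of these 10 names, 9 were found exactly as written among the 16995 genes listed in both deposited tables, and dec-1 was not. A row listed as 1-Dec was read as dec-1 with a symbol turned into a date, as described further on, and it was kept out of the counts and summaries below, except where its inclusion is stated.

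The study asked how gene expression in the fly responds to ubiquitin chains that are not anchored to a substrate protein. RNA came from 3 groups of whole flies aged 1 day, namely Ub6-GG, Ub6-Stop and Control, with 4 biological replicates in each group, 12 samples in all, and 10 flies per sample. Ub6 is a chain of ubiquitin units fused head to tail as a single protein. Ub6-GG ends in the glycine pair with which ubiquitin is attached to other proteins, and Ub6-Stop lacks it. Both transgenes were inserted at Attp40 and were expressed from sqh-Gal4, a driver that uses the promoter of spaghetti squash and is active in all tissues, in flies heterozygous for transgene and driver. Control flies shared that background and carried the driver without a Ub6 transgene. The crosses were kept in an incubator on a day and night cycle, and the labels do not give the sex of the flies.

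A follicle cell epithelium secretes the eggshell in layers, starting with the vitelline membrane next to the oocyte and finishing with the chorion outside it. The genes are switched on in order, the vitelline membrane genes and dec-1 first, then the early chorion genes Cp36 and Cp38 and last the late chorion genes Cp15, Cp16, Cp18 and Cp19. Follicle cells are also known for copying the X-chromosomal and third-chromosomal clusters of chorion genes many times over before these genes are transcribed.

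The value used for each gene was the authors' mean log2 CPM over all 12 libraries, which was the same in both tables. CPM is counts scaled to a common library size. The mean log2 CPM was read as the log2 of a mean CPM, and not as a mean of log2 values. A difference of 1 on this scale is a doubling. No value of a single sample was analysed, so the levels below describe the Ub6-GG, Ub6-Stop and Control flies together, no spread between replicates can be given, and no difference between the groups is reported. In RNA from whole flies, fewer follicle cells and less RNA per follicle cell cannot be told apart. A mean over libraries also does not show whether the reads of a gene came evenly from all 12. The lowest value in the tables, 0.25, was shared by 2186 genes and was taken as the level of a gene with no read. From that value an average library held about 1684427 counted reads, which are those in genes, in no gene or ambiguous. On that count, 1 read per library was worth 0.594 CPM. Levels in CPM below are given above the level of a gene with no read. Since reads came from the 3′ ends of transcripts, gene length does not enter the levels. Reads that overlap more than 1 gene, 8.89% of the counted reads, were set aside as ambiguous and are missing from the levels of overlapping genes. How far levels are comparable between genes was not tested.

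All 9 genes found by symbol were abundant. Each lay above a mean log2 CPM of 1, as did 69.4% of the genes in the tables, and each lay in the top 10% of the 14809 genes that had a read. The median of the 9 was 8.65, against 3.11 for all genes with a read. Their summed level was 5599 CPM, which was 0.649% of the reads assigned to genes. Within the set the levels were uneven, as Cp15 alone held 36.4% of its reads and the least abundant gene, Cp19, held 3.81%. The counting error was small beside these differences, with a standard error between 0.493% for Cp15 and 1.52% for Cp19. It covers counting of reads only and not variation between samples.

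**Figure D1:**
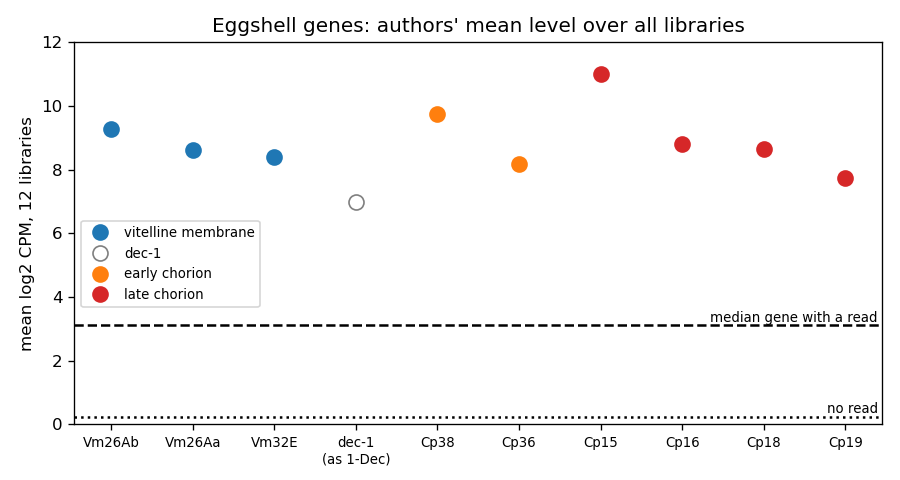
Each point is 1 gene's mean log2 CPM over the 12 libraries on the vertical axis, with genes grouped by role along the horizontal axis. Every point lies above the median gene with a read (dashed line, 3.11), and Cp15 is highest at 10.99. The open point is the row listed as 1-Dec, and the dotted line is the level of a gene with no read.

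Within the set, the 3 vitelline membrane genes had the most even levels. The 7 vitelline membrane genes of the wider list were less even, from 3.45 for fs(1)M3 to 9.72 for Vm34Ca. Vm26Ab, Vm26Aa and Vm32E encode small secreted structural proteins of the vitelline membrane, the inner layer that comes to be cross-linked around the egg. Vm26Ab had a mean log2 CPM of 9.29, or 625 CPM and about 1053 reads in an average library. Vm26Aa had a mean log2 CPM of 8.61, or 389 CPM. Vm32E had a mean log2 CPM of 8.39, or 333 CPM. From the highest to the lowest of these genes the level changed 1.87-fold, and Vm26Ab exceeded Vm26Aa 1.61-fold. Together they made up 0.156% of the reads assigned to genes. The 3 genes each have 1 exon in release 115 of the Ensembl annotation, on the left arm of chromosome 2.

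Dec-1 encodes several proproteins by alternative splicing, whose cleavage products take part in assembling the eggshell. The row listed as 1-Dec had a mean log2 CPM of 6.97, or 124 CPM and about 209 reads in an average library. This placed it at rank 1055 among the genes with a read, below all 9 genes found by symbol. The reading of this row as dec-1 rests on its name. Altogether 5 rows were listed as dates, the other 4 of them dates in September, and only 1 gene in the RefSeq gene table had a matching symbol or synonym. The annotation gives dec-1 as 6 transcripts with 4 to 5 exons on the X chromosome, which a count per gene does not separate.

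The early chorion genes Cp36 and Cp38 lie next to each other on the X chromosome and encode major structural proteins of the chorion. Cp38 had a mean log2 CPM of 9.75, or 857 CPM and about 1444 reads in an average library, the second highest level of the set. Cp36 had a mean log2 CPM of 8.18, or 289 CPM. The neighbours thus differed 2.96-fold in level. The pair made up 0.133% of the reads assigned to genes. Both lie inside CG33223, a gene on the opposite strand with a mean log2 CPM of 1.71. The strand setting of the counting is not given in the sources used here, so reads of these overlapping genes may have been set aside.

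The late chorion genes Cp15, Cp16, Cp18 and Cp19 encode small structural proteins of the chorion and differed most among themselves. Cp15 had a mean log2 CPM of 10.99, or 2040 CPM and about 3436 reads in an average library. It ranked 72 among the genes with a read, within the top 0.486%. Cp16 had a mean log2 CPM of 8.82, or 451 CPM. Cp15 therefore exceeded the next late chorion gene 4.52-fold. Cp18 had a mean log2 CPM of 8.65, or 401 CPM. Cp19 had a mean log2 CPM of 7.75, or 214 CPM, and ranked 632. The range from Cp15 to Cp19 was 9.55-fold, and the 4 genes made up 0.360% of the reads assigned to genes.

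In order of level the genes ran Cp15, Cp38, Vm26Ab, Cp16, Cp18, Vm26Aa, Vm32E, Cp36 and Cp19. The largest step between neighbours in this order was the 2.38-fold step between Cp15 and Cp38. The smallest was the 1.03-fold step between Cp18 and Vm26Aa, and the others lay between 1.13-fold and 1.39-fold. With no spread between samples, whether neighbours in this order differ was not tested. The order mixes the roles: the highest and the lowest gene are both late chorion genes, and vitelline membrane genes lie between them. The median log2 CPM was 8.96 in the early chorion genes, 8.74 in the late chorion genes and 8.61 in the vitelline membrane genes. Between the late chorion and the vitelline membrane genes the medians differed by 0.13 on the log2 scale. That difference is small beside the log2 range of 3.25 within the late chorion genes. Summed levels were 3105 CPM in the late chorion, 1347 CPM in the vitelline membrane and 1147 CPM in the early chorion genes.

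**Figure D2:**
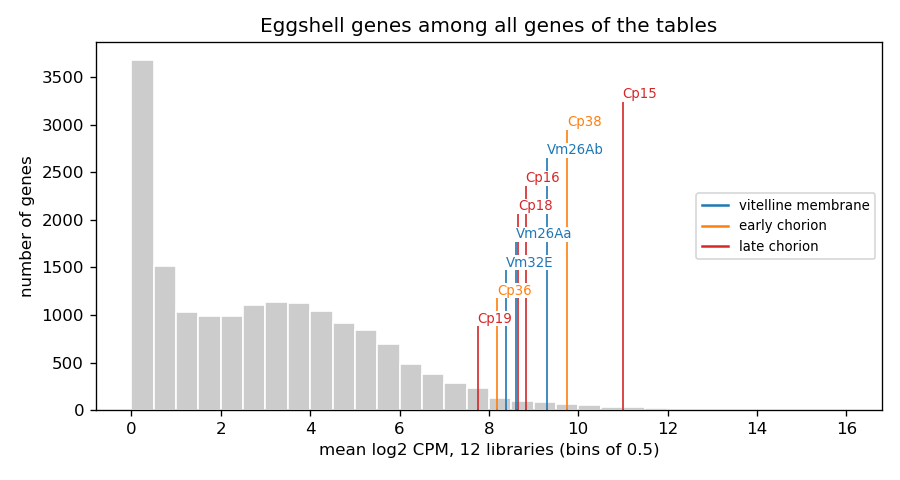
Grey bars count all genes of the tables in bins of mean log2 CPM on the horizontal axis, and each coloured line marks 1 eggshell gene, with a height that only separates the names. The 9 genes lie in the upper tail, between 7.75 and 10.99.

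The genes closest in level to the most and the least abundant eggshell gene were of several kinds. Directly above Cp15 lay ATPsynD, a subunit of the mitochondrial ATP synthase, and RpL39, a ribosomal protein gene, both with a mean log2 CPM of 11.00. Directly below it lay the ribosomal protein gene RpL10 at 10.95 and roh at 10.94. The most abundant eggshell gene thus stood beside ribosomal and mitochondrial genes and roh. Around Cp19 lay VhaM9.7-b, a proton pump subunit, and TpnC41C, a troponin C of muscle, both at 7.75 and both just above it. Just below lay Stat92E, the transcription factor of the JAK/STAT pathway, and Arr1, an arrestin of photoreceptors, both also 7.75 after rounding.

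The genes sit in blocks, and genes of a block differed in level. On the left arm of chromosome 3 the annotated order is Cp18, Cp15, Cp19 and Cp16, all on 1 strand with no other annotated gene between them. In that order the mean log2 CPM was 8.65, 10.99, 7.75 and 8.82, so the highest and the lowest late chorion gene were next to each other. Of the genes on either side, Prm, which encodes paramyosin of muscle, had a level of 8.89, within the range of the cluster. On its other side CG43965 had no read, and the farther neighbours CG6511 and CG13306 had levels of 3.20 and 1.22.

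On the X chromosome Cp36 and Cp38 follow Cp7Fa, Cp7Fb and Cp7Fc, other chorion genes of the same strand and cluster. These had mean log2 CPM of 3.80, 5.97 and 3.39, all lower than Cp36 and Cp38. By annotated order they also begin inside CG33223, so reads of theirs may likewise have been set aside. Cp36 exceeded Cp7Fb 4.72-fold and Cp7Fc 31.1-fold, and Cp38 exceeded Cp7Fc 92.2-fold. Genes of 1 cluster thus differed widely in level. Beyond the cluster lay CG12116 at 7.02 on one side, and CR43834 with no read and otu, a gene of the female germline, at 5.78 on the other.

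On the left arm of chromosome 2 the order is Vm26Ab, Vm26Ac, Vm26Aa and psd, with Vm26Ab on the opposite strand to the other 3. Vm26Ac, a further vitelline membrane gene, had a mean log2 CPM of 4.25, and psd (palisade), a vitelline membrane protein gene, had 4.64. Vm26Aa exceeded Vm26Ac 21.9-fold and psd 16.4-fold, and Vm26Ab exceeded Vm26Ac 35.2-fold. The 2 members were therefore far above the eggshell genes beside and between them. The outer neighbours CG13998, CG13999, CG13992 and Ucp4C had levels of 1.33, 0.90, 2.47 and 4.55. Vm32E lies elsewhere on this arm, inside Ca-beta, a calcium channel subunit gene of the same strand that had a level of 3.21. Vm32E and Ca-beta share a strand, so a strand setting would not separate any reads that fall in both. The overlaps of members with other genes are of whole gene spans, and overlap of exons was not examined. Dec-1 overlaps the antisense RNA CR43615, which had no read.

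**Figure D3:**
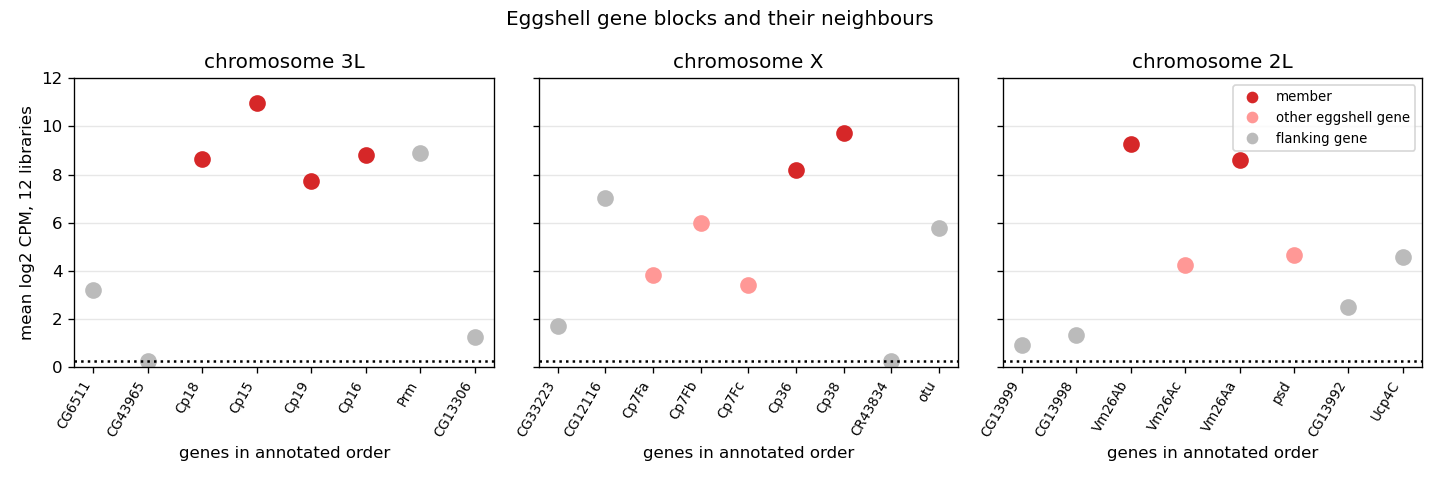
Each panel shows 1 block of eggshell genes with its neighbours in annotated order, and the vertical axis is the mean log2 CPM over the 12 libraries. CG33223 in the X panel is drawn as a flanking gene, though it contains Cp36 and Cp38. Members lie at 7.75 or above in each panel, the other eggshell genes of the X and 2L blocks lie between 3.39 and 5.97, and the dotted line is the level of a gene with no read.

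A wider list of 15 eggshell genes was read at lower levels. All 15 lay above a mean log2 CPM of 1, with a median of 4.93, and 2 of them reached the top 10%. Those 2 belong to the vitelline membrane: Vm34Ca, a structural gene at 9.72, and Vml (vitelline membrane-like) at 7.06. Vm34Ca exceeded Vm26Ab, the most abundant vitelline membrane gene of the set, 1.35-fold. Genes with roles in cross-linking or assembly of the vitelline membrane had lower levels. Yellow-g2 had 6.10, yellow-g 5.33, fs(1)N 5.78, clos (closca) 4.23 and fs(1)M3 3.45 log2 CPM. Among other genes of follicle cells and the chorion, Fcp3C had 4.95 and Femcoat 4.93. Pxd, which encodes a peroxidase, was the lowest of the list at 1.58. The 15 genes together made up 0.157% of the reads assigned to genes, less than the late chorion genes alone.

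Genes listed for follicle cells or for chorion gene copying all had lower levels than the 9 eggshell genes. These are levels in whole flies, and how much of each came from follicle cells was not tested. The 8 genes of chorion gene amplification that were found, which include replication factors and their regulators, ran from 2.39 for mip130 to 6.74 for E2f1, with a median log2 CPM of 3.88. The 4 follicle cell genes, regulators and a surface protein, ran from 0.67 for slbo to 5.97 for Fas3, with a median of 4.08. Of these, slbo, a transcription factor of border cells, lay below a log2 CPM of 1. The remaining 3 lay above it.

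Levels of genes of other cell types were also measured, since whole flies hold them all. The 3 yolk protein genes, which are made in the female fat body and in follicle cells, ran from 9.89 for Yp2 to 10.87 for Yp1. Cp15 lay 1.09-fold above Yp1, a log2 difference of 0.13. The 8 genes of the female germline ran from 2.06 for grk to 7.24 for osk, with a median of 4.99. Genes of the male were present too, as 6 male accessory gland genes ran from 3.54 for Acp26Ab to 9.62 for SP with a median of 7.39. The 8 sperm genes ran from 1.58 for Mst84Da to 8.92 for Mst84Db with a median of 6.96. The 12 libraries between them thus held RNA that is made in females and RNA that is made in males. The share of each sex in a sample was not analysed here, and its part in the levels of the eggshell genes was not tested. The 4 reference genes used in every tissue ran from 9.95 for alphaTub84B to 11.20 for RpL32, a range that holds Cp15 but none of the other eggshell genes of the set.

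**Figure D4:**
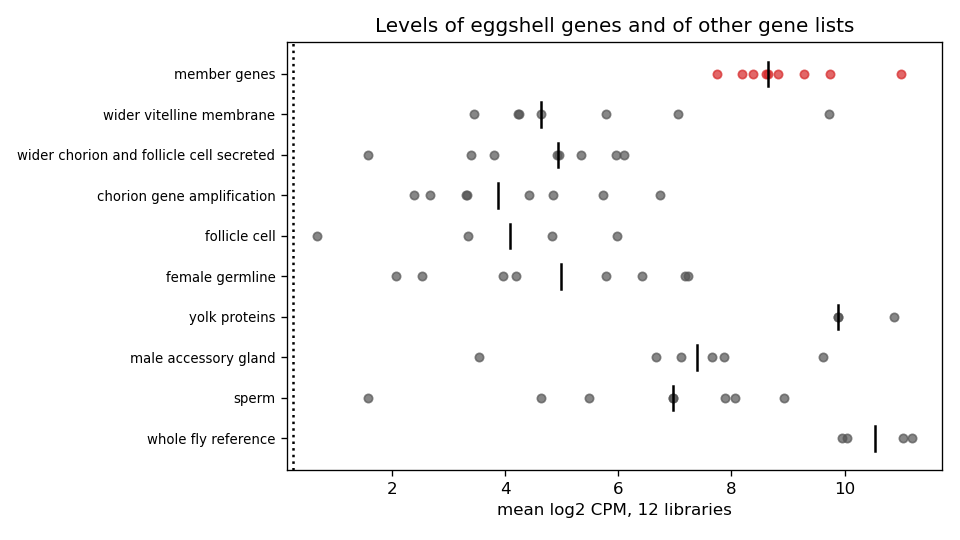
Each point is the mean log2 CPM of 1 gene over the 12 libraries, each row is 1 gene list, and the black tick is the median of the list. The median of the 9 eggshell genes (red, 8.65) lies above the medians of the male accessory gland genes (7.39) and sperm genes (6.96) and below those of the yolk proteins (9.89) and reference genes (10.54).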

How the data were processed

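Per the labels and the study's methods, RNA was extracted from all whole flies on the same day and poly(A)-primed 3′ libraries were made. CASAVA 1.8.2 is named in the submitters' processing notes. The authors used STAR for alignment to dm3, made a table of reads per gene and ran edgeR on it. Of the 2 deposited tables, the column used is the mean log2 CPM that the authors computed with a prior count over all 12 libraries. The other columns hold the authors' own comparisons (fold changes, likelihood ratios, p-values and FDR) and were not used. There were 0 columns of values per sample, so no test was run and no library could be left out.

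CPM above the no-read level is 2 to the power of the value minus that of the lowest value. The average library follows from an assumed prior count of 2. The recovered totals of 99.6% of the 1221 genes with 1 to 3 reads lay within 0.25 of a whole number. The 2 rows naming no gene, reads in no gene (5.31%) and ambiguous reads (8.89%), held 14.2% of the counted reads and were left out.

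The members and lists were chosen with earlier results of these data known. All members and all wider eggshell genes found are named, of other lists the highest and the lowest, and the 2 genes ranked above and below the highest and lowest member. Ensembl release 115 and RefSeq, of a later build than dm3, served for names, and 13166 names matched to Ensembl. Ensembl also gave chromosomes, gene order, strands, numbers of exons and transcripts, and overlaps of genes. No level was taken from either. Alternatives were other thresholds, the prior removed, other genes ranked, means for medians and, chosen after seeing the data, scaling to reads assigned to genes and 1-Dec counted. Python 3.11.15, pandas 2.3.3, numpy 2.4.6 and matplotlib 3.10.9 were used.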

Additional observations from a re-analysis of the deposited data

How the results depend on the processing

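The 9 genes found by symbol remained 9 above a mean log2 CPM of 1, of 0 or of 2, and with the prior removed. All 9 lay in the top 10% whether all genes, genes above a log2 CPM of 1 or genes with a name were ranked. The median of the 9 genes, 8.65, was 8.94 with a mean in place of the median and 8.87 when scaled to the reads assigned to genes only, a rescaling chosen after seeing the data that adds 0.22 to every gene. It was 8.63 with the row listed as 1-Dec counted, also chosen after seeing the data. The log2 difference between late chorion and vitelline membrane genes, 0.13, was 0.29 with means in place of medians and 0.24 with dec-1 counted among the vitelline membrane genes. Of the 15 wider eggshell genes, 14 lay above a log2 CPM of 2. No paired analysis was possible because each gene has 1 value over all libraries, and no replicate could be left out for the same reason. Every gene of the set had at least about 209 reads in an average library, the row listed as 1-Dec included. The depth of single libraries was not seen, and variation between samples is not known. RNA integrity numbers reported by the study differed between samples, and their part in the pooled levels was not tested.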
